A study of Mus musculus with 6 samples.

Results

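This report describes the microRNAs cut from the miR-199a, miR-199b and miR-214 hairpins in mouse oviducts and in Dicer1-mutant tumors of the oviduct. The members were chosen by name and are 6 of the 1915 mouse names in the count table: mmu-miR-199a-5p, mmu-miR-199a-3p, mmu-miR-199b-5p, mmu-miR-199b-3p, mmu-miR-214-3p and mmu-miR-214-5p. The species prefix is left out below. The 3p rows of miR-199a and miR-199b hold the same counts in all 6 libraries and are treated as 1 row, called miR-199-3p, which leaves 5 distinct members. Of these, 4 passed the filter on low counts. The exception, miR-199b-5p, is given by its counts.

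Small RNA was sequenced from 3 oviducts and 3 primary tumors. The genotype was Dicer1+/D1693N in the oviducts, a wild-type copy with the D1693N allele, and Dicer1ko/D1693N in the tumors, a knockout copy with D1693N, so every sample held D1693N. The tumors are labelled as oviduct tissue and as ADT tumors, a name the labels do not explain, and neither a driver of the knockout nor the age of the mice is given in the sources used here. Tissue state, Dicer1 genotype and a tag in the column headers (s0 for every oviduct, s1 for every tumor) all differ between the groups in the same way and cannot be told apart. Mouse microRNA counts per library ranged from 297039 to 580390 for the oviducts and from 154002 to 272167 for the tumors.

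A microRNA gene is transcribed into a long precursor from which a hairpin is cut. Dicer then removes the loop and releases the strands of the 2 sides, 5p and 3p, and the strand kept by an Argonaute protein guides it to messenger RNAs that pair with the seed, bases 2 to 8 of the strand. The RNase IIIb domain of Dicer, where D1693N lies, makes the cut on the 5p side, and RNase IIIa makes the cut on the 3p side. The miR-199 and miR-214 genes are known for expression in mesenchymal cells such as fibroblasts, and Mir199a-2 and Mir214 are made from a shared long noncoding RNA, Dnm3os, that is under the control of the transcription factor Twist1 and is needed for normal skeletal growth.

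The mature strands are shown because rows of the same sequence cannot be told apart. They are taken from RefSeq (GRCm38.p6), which matched 5 of the 6 members by name, and the seed is in capitals.

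miR-199a-5p: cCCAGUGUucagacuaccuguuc

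miR-199a-3p and miR-199b-3p: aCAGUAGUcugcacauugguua

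miR-214-5p: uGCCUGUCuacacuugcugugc

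miR-214-3p: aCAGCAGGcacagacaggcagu

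The 3p strands of miR-199a and miR-199b are the same 22 bases, so a read of this strand cannot be assigned to 1 of its 3 hairpins. The 3p strands of miR-199 and miR-214 share their first 4 bases, and their seeds differ by the substitutions U5C and U8G (the base in miR-199-3p, its position from the 5′ end, the base in miR-214-3p). They are equal at 8 of 22 positions in all. The seed of miR-214-3p is also that of miR-761, which had 0 counts in every library except 1 count in tumor 3. Among the mature sequences used here, no name outside the members shared the seed of miR-199-3p, miR-199a-5p or miR-214-5p.

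The hairpins are shown because each result below compares their 2 sides. Annotated mature strands are in capitals.

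Mir199a-1, chr9:21496495-21496564, minus strand: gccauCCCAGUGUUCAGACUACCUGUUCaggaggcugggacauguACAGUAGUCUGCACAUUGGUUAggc

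Mir199a-2, chr1:162217814-162217923, plus strand: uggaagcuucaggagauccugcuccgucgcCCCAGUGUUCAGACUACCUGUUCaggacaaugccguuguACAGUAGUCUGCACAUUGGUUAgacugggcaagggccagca

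Mir199b, chr2:32318460-32318569, plus strand: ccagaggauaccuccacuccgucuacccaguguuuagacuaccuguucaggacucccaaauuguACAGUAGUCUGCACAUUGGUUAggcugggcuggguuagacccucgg

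Mir214, chr1:162223368-162223477, plus strand: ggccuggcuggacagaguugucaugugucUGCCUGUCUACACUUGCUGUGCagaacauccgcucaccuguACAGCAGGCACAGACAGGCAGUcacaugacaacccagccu

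Each hairpin lies on the opposite strand within an intron of a dynamin gene (GENCODE M21, GRCm38): Mir199a-1 in Dnm2, Mir199b in Dnm1, and Mir199a-2 and Mir214 in Dnm3. The latter pair also overlaps exons of Dnm3os on its own strand and is 5444 bases apart. The 5p and 3p strands are separated by 17 bases in Mir199a-1, 16 in Mir199a-2 and 19 in Mir214. A stretch of the Mir199b hairpin matches miR-199a-5p over 23 bases with 1 substitution, C10U (the base in miR-199a-5p, its position from the 5′ end, the base in Mir199b). The rows of miR-199a-5p and miR-199b-5p therefore rest on how reads with such a difference were assigned, which is not given in the sources used here.

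In the tumors the 3p strands of miR-199 and miR-214 rose about equally and their 5p strands fell. Beside CPM (counts scaled by library size, here with trimmed mean of M-values or TMM factors), raw counts are given, since the tumor libraries were the smaller ones. Changes are log2 fold changes of tumor over oviduct from edgeR's quasi-likelihood test across 227 names, with Benjamini-Hochberg adjusted p-values and a threshold of 0.05.

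The strand miR-199-3p, the member with the most counts, had 1570, 2664 and 978 counts in oviducts 1, 2 and 3 and 5462, 6739 and 9648 in tumors 1, 2 and 3. On the CPM scale these were 4886, 4852 and 3859 in the oviducts against 27343, 28776 and 42099 in the tumors. Every tumor lay above every oviduct, in raw counts as well as in CPM. CPM values did not overlap between the groups for 61.2% of all tested names. The mean went from 4532 ± 583 to 32739 ± 8138 CPM (SD, n = 3 each), a log2 fold change of 2.85 (SE 0.30, edgeR adjusted p = 5.29e-05), or 7.22-fold. In bulk tissue fewer or more cells of a type and less or more RNA per cell cannot be told apart.

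Its place in the library moved as well. This strand ranked 24th, 20th and 24th by count in the oviducts against 4th, 5th and 4th in the tumors. It took 0.418% (exact 95% interval 0.398 to 0.439), 0.459% (0.442 to 0.477) and 0.329% (0.309 to 0.351) of an oviduct's counts. In the tumors it took 2.01% (1.95 to 2.06), 3.82% (3.73 to 3.91) and 6.26% (6.14 to 6.39). The shares of the groups did not overlap (two-sided exact permutation p = 0.1, the smallest that 3 against 3 allows). Only miR-143-3p, miR-10a-5p, miR-10b-5p and, in tumor 2, miR-22-3p had more counts than miR-199-3p in a tumor.

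The strand miR-214-3p, also the main product of its hairpin, was scarcer and rose by a like amount. It had 65, 112 and 52 counts in the oviducts against 209, 327 and 386 in the tumors. In CPM the oviducts lay close together, at 202, 204 and 205, and the tumors at 1046, 1396 and 1684. No tumor overlapped an oviduct. The mean went from 204 ± 1.45 to 1376 ± 320 CPM (n = 3 each), a log2 fold change of 2.75 (SE 0.33, edgeR adjusted p = 0.000121).

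Rises were common among 3p names. Of all 110 tested 3p names 41.8% were called higher, and their median log2 fold change was 0.88, so that 2 of 2 distinct 3p members being called is not by itself a result about them. Among 109 3p names, with miR-199-3p counted once, miR-199-3p had the 20th largest and miR-214-3p the 21st largest log2 fold change.

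**Figure D1:**
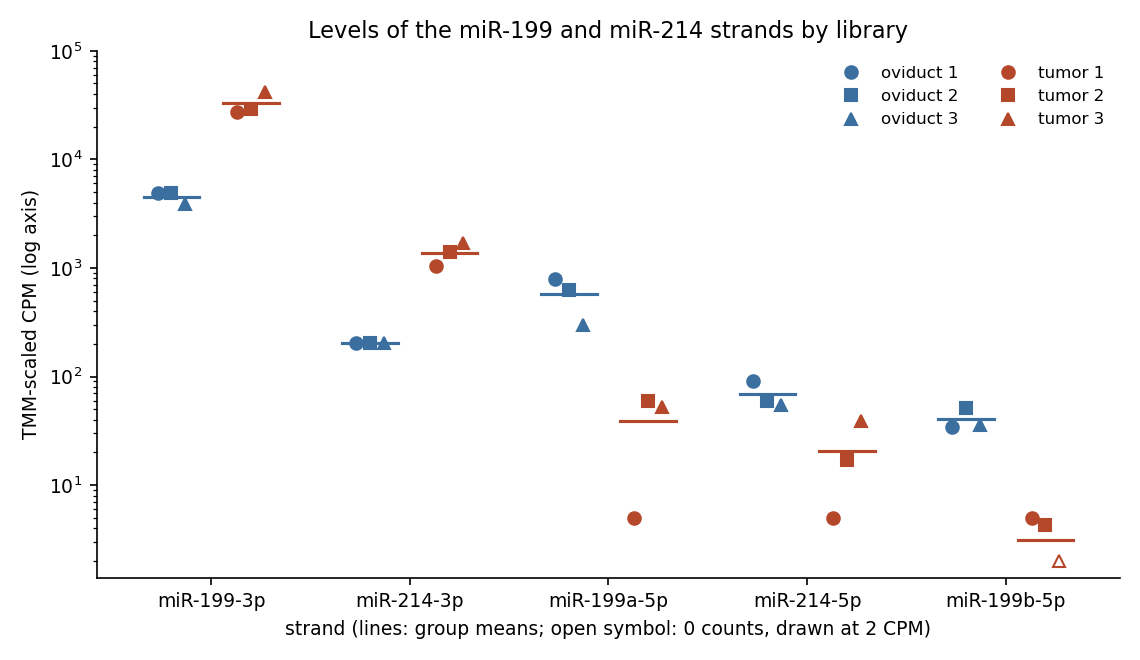
TMM-scaled CPM (log axis) of each distinct strand in each library, with oviducts in blue, tumors in red, 1 symbol per replicate and a line at each group mean; the open symbol marks the library with 0 counts. The 3p strands are higher in all 3 tumors and the 5p strands lower, with tumor 1 lowest for miR-199a-5p and miR-214-5p.

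The 5p strands were lower in the tumors. For miR-199a-5p, which both miR-199a hairpins can yield, 255, 341 and 75 counts were found in the oviducts against 1, 14 and 12 in the tumors. These were 794, 621 and 296 CPM against 5.01, 59.8 and 52.4 CPM. Oviduct 3 was the lowest of its group and tumor 1 the lowest of all, and the groups did not overlap. The mean fell from 570 ± 253 to 39.05 ± 29.7 CPM (n = 3 each), a log2 fold change of -3.83 (SE 0.70, edgeR adjusted p = 0.00162). Without oviduct 3 it was -4.44. The count of 1 in tumor 1 lies under the floor of 3 counts (15.0 CPM there).

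For miR-214-5p the counts were 29, 33 and 14 in the oviducts against 1, 4 and 9 in the tumors, or 90.3, 60.1 and 55.2 CPM against 5.01, 17.1 and 39.3 CPM. All tumors lay below all oviducts in CPM, but tumor 3 came near to oviduct 3. As a share of library counts the groups overlapped, at 0.00471% in oviduct 3 and 0.00584% in tumor 3. The mean fell from 68.5 ± 19.0 to 20.5 ± 17.4 CPM (n = 3 each), a log2 fold change of -1.70 (SE 0.61, edgeR adjusted p = 0.0388). This call was lost without oviduct 1, oviduct 2, oviduct 3, tumor 1 or tumor 2, with DESeq2 (adjusted p = 0.0576) and with library totals alone (adjusted p = 0.146), and without tumor 3 the change was -2.68.

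For miR-199b-5p, the scarcest member, 11, 28 and 9 counts were found in the oviducts against 1, 1 and 0 in the tumors. It missed the filter and so has no test beside the others. With no filter on low counts its log2 fold change was -3.88 (SE 0.96, edgeR adjusted p = 0.000611), and with a filter at a mean of 10 CPM it was -3.89 (SE 0.80, adjusted p = 0.00227). Its 5p counts were 4.14%, 7.59% and 10.7% of the sum of both miR-199 5p names in the oviducts. In the tumors 2 of 29 pooled counts were its own, beside 48 of 719 in the oviducts, and the odds ratio of 0.97 had an exact 95% interval from 0.23 to 8.63, too wide to compare the genes at this depth.

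Falls were also common among 5p names: 48.4% of the 95 tested were called lower, and their median log2 fold change was -1.05. Among them miR-199a-5p had the 7th largest fall and miR-214-5p the 25th largest. The latter is near the middle of the 46 that fell.

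The level of a strand depends on the scaling, and the sizes moved with it while the directions stayed. The log2 fold change of miR-199-3p was 1.93 with TMM factors from 3p names, 4.00 with TMM factors from 5p names and 3.32 with library totals alone. That of miR-214-3p was 1.85, 3.89 and 3.24, and that of miR-199a-5p was -4.78, -2.77 and -3.29. The median of all tested names moved as well, to -0.74, 1.32 and 0.65, from 0.19 with TMM on all names. Relative to that median, the rise of miR-199-3p was 2.66 with TMM on 3p names, 2.68 with TMM on 5p names, 2.68 with library totals and 2.66 with TMM on all names. Other factors shift all names by nearly the same amount, so these values had to be close and are not a separate check. For miR-214-5p the change was -2.65, -0.59 and -1.19, and only the first of these was called.

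**Figure D2:**
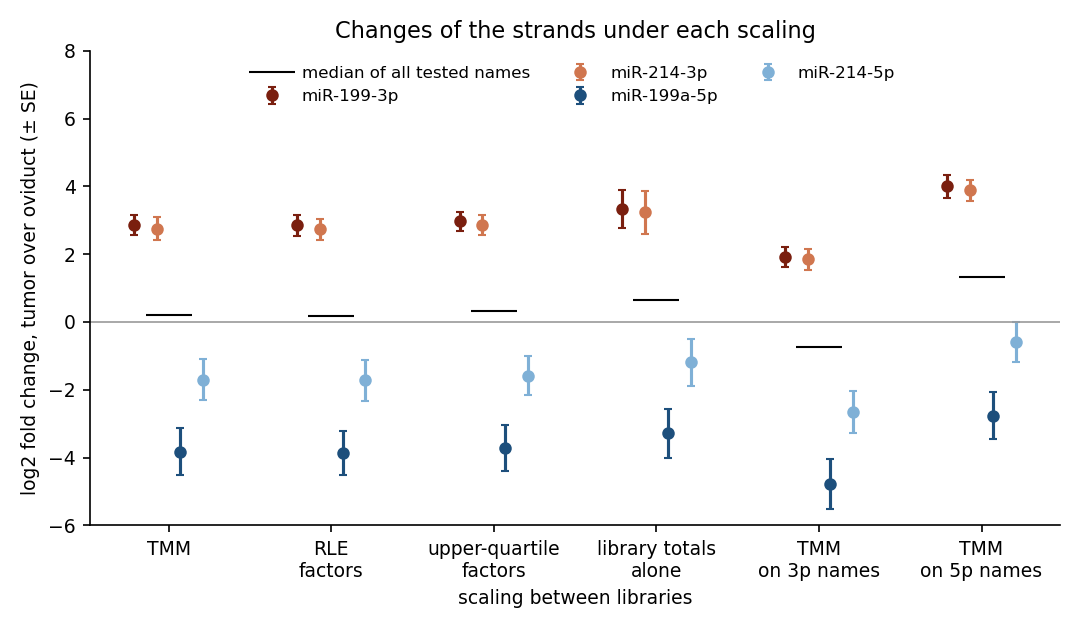
Log2 fold change (tumor over oviduct, with SE) of the 4 tested strands under 6 ways to scale the libraries, and the median of all tested names as a black line. The 3p strands are above that median and above 0 in each scaling, the 5p strands below both, and miR-214-5p comes within about its SE of 0 with TMM on 5p names.

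Within a library the ratio of the strands needs no scaling. It was tested with limma on the log2 ratio of 5p to 3p counts, each with 0.5 added, over 142 hairpins. Counts of different strands also reflect how readily each is ligated and amplified, so these ratios are compared between libraries and not read as molar amounts.

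Compared with miR-199a-5p, the shared miR-199-3p row already prevailed in the oviducts. Its counts can include reads from Mir199b, so the ratio called miR-199a here is not that of the miR-199a hairpins alone. For each miR-199a-5p count there were 6.16, 7.81 and 13.04 counts of miR-199-3p in oviducts 1, 2 and 3, against 5462, 481 and 804 in tumors 1, 2 and 3. The 5p share was 13.97% (exact 95% interval 12.4 to 15.6), 11.3% (10.2 to 12.5) and 7.12% (5.64 to 8.85) in the oviducts. It was 0.0183% (0.000463 to 0.102), 0.207% (0.113 to 0.348) and 0.124% (0.0642 to 0.217) in the tumors. No tumor reached the lowest oviduct, a pattern found in 51.4% of all hairpins tested. From oviducts to tumors the log2 ratio changed by -7.00 (SE 0.80), a factor of 128, with an adjusted p of 4.68e-05 by limma. It was -6.13 without tumor 1, whose value rests on a single 5p count, and -7.62 without tumor 2.

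In the miR-214 hairpin 3p counts also prevailed in the oviducts, but less. For each miR-214-5p count there were 2.24, 3.39 and 3.71 counts of miR-214-3p in the oviducts against 209, 81.8 and 42.9 in the tumors. The 5p share was 30.9% (exact 95% interval 21.7 to 41.2), 22.8% (16.2 to 30.5) and 21.2% (12.1 to 33.02) in the oviducts against 0.476% (0.0121 to 2.62), 1.21% (0.330 to 3.07) and 2.28% (1.05 to 4.28) in the tumors. These intervals do not overlap between the groups. Here the log2 ratio fell by 4.63 (SE 0.64), a factor of 24.8, with an adjusted p of 0.000181 by limma. With any single library left out it stayed called, between -5.07 and -4.18.

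For miR-199b the pooled counts went from 48 5p beside 5212 3p in the oviducts to 2 beside 21849 in the tumors. The odds ratio was 101 (Fisher's exact conditional estimate, exact 95% interval 26.3 to 840, counting error only). For comparison, the pooled odds ratio was 104 (70.9 to 160.2) for miR-199a and 21.8 (11.96 to 42.5) for miR-214. Since the 3p count is shared, miR-199a and miR-199b are not separate results.

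Of the 142 hairpins 47.2% had a called fall of the ratio, and the median log2 change was -1.53. Among 141 hairpins, with miR-199 counted once as miR-199a, the miR-199a ratio had the largest fall in value, close to miR-99a at -6.95 (SE 0.59) and miR-218 at -6.87 (SE 0.66). These 3 differ by far less than their SE. The miR-214 ratio had the 20th largest fall. Apart from the members, 65 hairpins had a mean log2 ratio below 0 in the oviducts, of which 13 fell, 6 rose and 46 were not called. Their median was -0.30, and the largest of their falls was that of miR-434, at -3.75. Whether the members differ from those 65 was not tested.

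**Figure D3:**
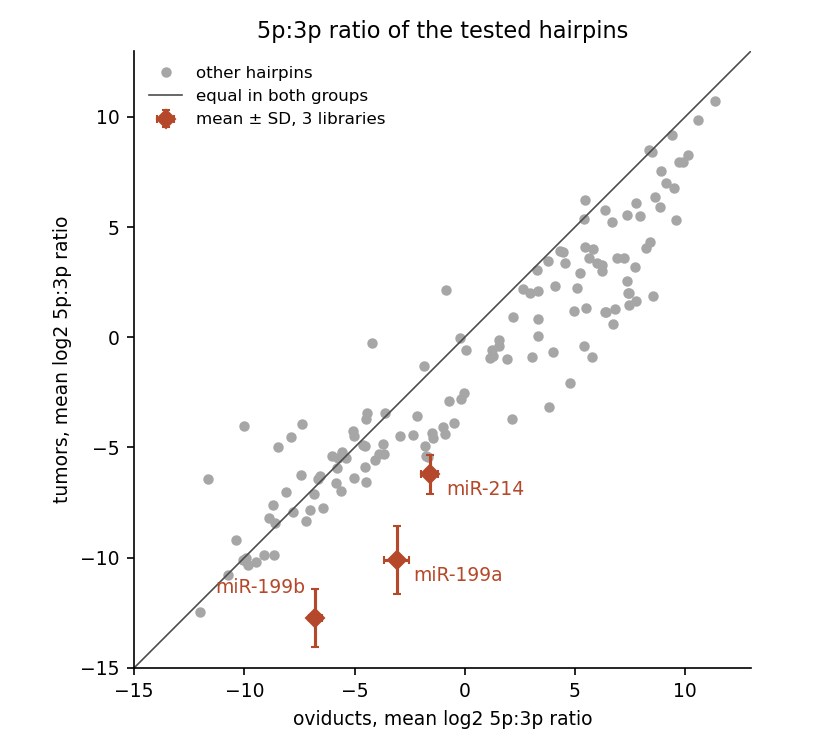
Mean log2 5p:3p count ratio of each tested hairpin in the oviducts (horizontal) and the tumors (vertical), with a line where both are equal; bars on the 3 member hairpins are the SD over 3 libraries. The members already lie left of 0, and miR-199a, at -3.09 in the oviducts and -10.1 in the tumors, lies farther below the line than miR-214, at -1.58 and -6.22.

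The change of the ratio was larger in miR-199a than in miR-214 in value. The log2 ratio of miR-199a minus that of miR-214 was -1.47, -1.22 and -1.84 in the oviducts against -4.70, -2.68 and -4.25 in the tumors. All 3 tumors showed a wider gap than any oviduct. The gap changed by -2.37 on the log2 scale (3 libraries a group, exact two-sided permutation p = 0.1, the smallest possible). The 95% interval of this change, from the pooled SD, ran from -4.15 to -0.59. Pooling assumes equal spread, but the SD of the 3 oviducts, 0.31, lay below that of the 3 tumors, 1.06. The limits of the interval are therefore uncertain. This comparison was chosen after its values were seen and involves the single 5p counts of tumor 1.

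The ratio of the 3p strands to each other differed by less than its spread between libraries. There were 24.2, 23.8 and 18.8 counts of miR-199-3p per count of miR-214-3p in the oviducts against 26.1, 20.6 and 25.0 in the tumors. The ranges overlap, and all 6 libraries lie within 18.8 and 26.1. On the log2 scale the ratio was 4.46 ± 0.20 in the oviducts against 4.57 ± 0.18 in the tumors (SD, n = 3 each). The difference of 0.11 had a 95% interval from -0.33 to 0.55 (two-sided exact permutation p = 0.5). Changes of the ratio within that interval are not excluded by these data, and with 3 libraries a group the permutation test cannot give a p under 0.1.

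**Figure D4:**
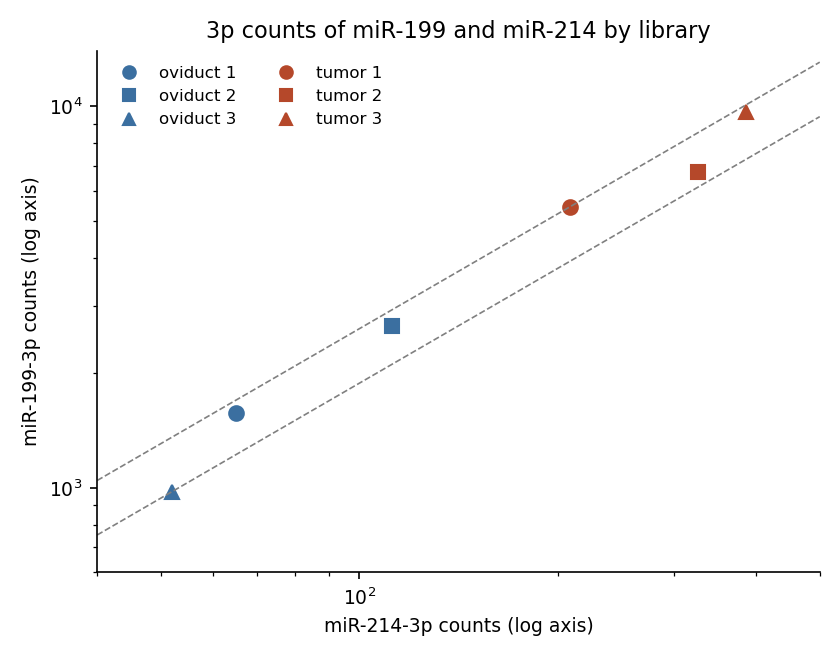
Raw counts of miR-199-3p against miR-214-3p in each library (log axes), with dashed lines at the lowest and highest ratio found, 18.8 and 26.1. The tumors lie farther up the same narrow band as the oviducts.

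Both strands together rose, but the sums are mostly the 3p strands described above, so these rises are not separate results. For miR-199 the 3p strand was on average 4532 of 5143 CPM in the oviducts and 32739 of 32782 CPM in the tumors. For miR-214 it was 204 of 272 CPM and 1376 of 1396 CPM. The summed counts of miR-199 (both 5p names and the shared 3p row) were 5714, 5524 and 4190 CPM in the oviducts against 27353, 28840 and 42152 CPM in the tumors. The log2 fold change was 2.67 (SE 0.29, edgeR adjusted p = 0.000355 over 161 hairpins). For miR-214 the sums were 293, 264 and 260 CPM against 1051, 1413 and 1724 CPM, with a log2 fold change of 2.36 (SE 0.30, edgeR adjusted p = 0.000639). With TMM factors from the 3p names the log2 fold changes of these sums were 1.74 for miR-199 and 1.45 for miR-214, still called. Of the 161 hairpins 15.5% were called higher, and the median log2 fold change was -0.01. The miR-199 and miR-214 sums had the 9th and the 12th largest rise.

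The summed members took 0.514%, 0.548% and 0.380% of library counts in the oviducts against 2.08%, 4.01% and 6.53% in the tumors. With miR-143 left out of the total, they took 0.920%, 1.01% and 0.720% in the oviducts against 5.34%, 5.55% and 7.59% in the tumors. The spread between the tumors was thus smaller once miR-143, which took 60.9%, 27.7% and 13.9% of the tumor counts as miR-143-3p, was set aside.

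Other microRNAs known from mesenchymal and stromal cells went in both directions. Of 18 listed names 16 were tested, of which 4 rose, 4 fell and 8 were not called (26.9% of all tested names were called higher and 25.6% lower), with a median log2 fold change of -0.67, beside 0.19 for all tested names. The rises were those of miR-152-3p, miR-10b-3p, miR-100-3p and miR-21a-3p, and the falls those of miR-145a-5p, miR-145a-3p, miR-152-5p and miR-100-5p. These rises were all of 3p names, of which 41.8% of all tested were called higher. The falls were of 5p names except miR-145a-3p, and 48.4% of all tested 5p names were called lower. Under the floor of 3 counts lay miR-100-3p in oviducts 1 and 3 (6.22 and 3.95 CPM) and miR-10b-3p in oviduct 3 (3.95 CPM). The 6 most abundant were miR-143-3p (log2 -0.46, SE 0.67), miR-10b-5p (log2 -0.88, SE 0.35), miR-22-3p (log2 0.27, SE 0.31), miR-21a-5p (log2 0.64, SE 0.37), miR-29a-3p (log2 -0.98, SE 0.40) and miR-145a-5p (log2 -4.77, SE 0.47). Only the last of these was called (edgeR adjusted p = 3.79e-05). The summed level of the list ranged from 670296 to 801705 CPM in the oviducts and from 194710 to 997203 CPM in the tumors, so the groups overlapped. Tumor 1, at 997203 CPM, lay above every oviduct, and tumors 2 and 3, at 349095 and 194710 CPM, lay below every oviduct. Most of each sum was miR-143-3p and miR-10b-5p.

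Against miR-143-3p, the most abundant strand of that list, miR-199-3p was higher in every tumor than in any oviduct. The cells that miR-143-3p came from are not known here, so this is not a ratio within stromal cells. The counts of miR-199-3p were 0.00948, 0.01002 and 0.00697 of those of miR-143-3p in the oviducts against 0.0329, 0.138 and 0.449 in the tumors. The log2 ratio differed by 3.86 (3 libraries a group, exact two-sided permutation p = 0.1, the smallest possible). The 95% interval of this difference, from the pooled SD, ran from 0.80 to 6.92. Pooling assumes equal spread, but the SD of the 3 oviducts, 0.28, lay far below that of the 3 tumors, 1.89. No conclusion is therefore drawn from the limits of this interval. The tumors differed widely, since miR-143-3p itself ranged from 93733 CPM in tumor 3 to 830088 CPM in tumor 1.

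Markers of some other cell types moved too, and their part in the change of the members was not tested. For comparison, 26.9% of all tested names were called higher and 25.6% lower. Of 5 tested strands of multiciliated cells 3 fell, and the 6 listed names summed to 14840 to 21577 CPM in the oviducts against 419 to 1201 CPM in the tumors. Of 10 tested epithelial names 1 rose and 2 fell, with sums from 9762 to 14372 CPM and from 7284 to 10699 CPM, and among the 15 listed miR-429-5p had 0 counts in all libraries. Both endothelial strands of miR-126a rose, with sums from 7130 to 9529 CPM and from 15116 to 20046 CPM. Among 6 leukocyte names edgeR called 0 (2 were higher at an unadjusted p under 0.05, and DESeq2 called 1 name higher), and their sum was highest in tumor 2, at 7276 CPM, beside 1422 and 1728 CPM in tumors 1 and 3.

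The tested names whose profiles over the 6 libraries lay nearest to the members were found by the root mean square difference of log2 CPM, each profile centred on its own mean. Nearest to miR-199-3p were miR-15b-3p (0.14), miR-214-3p (0.17), miR-125b-1-3p (0.20), miR-196b-3p (0.31) and miR-125a-3p (0.33), where the median of 225 names was 1.58. Nearest to miR-214-3p were miR-15b-3p (0.15), miR-199-3p (0.17), miR-125b-1-3p (0.19), miR-125a-3p (0.26) and let-7a-1-3p (0.28). The row of let-7c-2-3p holds the same values as that of let-7a-1-3p and ties with it. In the oviducts miR-15b-3p had 1 or 2 counts in each library (fitted log2 fold change 3.96) and miR-196b-3p had 0 or 1 (fitted log2 fold change 5.39), all under the floor of 3 counts, so their distances rest on the 2 counts added before the log and do not show that they changed as the members did. Of the others, miR-125a-3p had 4 to 10 oviduct counts, let-7a-1-3p 11 to 37 and miR-125b-1-3p 46 to 135. For miR-199a-5p (median 2.23) the nearest were miR-196a-5p (0.63), miR-145a-5p (0.77), miR-218-5p (0.81), miR-204-5p (0.82) and miR-615-3p (0.86). In tumors 1, 2 and 3 miR-196a-5p had 0, 17 and 4 counts, miR-218-5p 1, 5 and 1, and miR-615-3p 1, 8 and 3. Those of miR-145a-5p were 10, 39 and 22, and those of miR-204-5p 13, 45 and 90. For miR-214-5p (median 1.21) the nearest were miR-676-3p (0.35), miR-151-5p (0.39), miR-351-5p (0.40), miR-30c-5p (0.41) and miR-99a-5p (0.49). In all of these distances, log2 CPM of names with few counts is drawn toward the middle by the 2 counts added.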

How the data were processed

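The authors deposited raw counts, whole numbers without normalization, per mature microRNA name. The submitters' processing notes name cutadapt for trimming, and BAM files of trimmed reads were counted, per the file headers. Not given in the sources used here are the aligner, the counter, the microRNA reference, the build and the handling of reads that match several hairpins. Per the labels' protocols, a miRNeasy kit was used for total RNA and a TruSeq small RNA kit for the libraries. The series text mentions 5 oviducts and 4 tumors; 3 of each were analysed here. Whether samples of a group are separate animals is not stated, and p-values thus reflect only the spread of these samples, possibly a technical one.

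The 67 names of other species, with 10 counts in all, were left out. Levels were tested with edgeR 4.0.16 in R 4.3.3 (filterByExpr with a minimum count of 10, TMM factors from 0.734 to 1.49, robust quasi-likelihood test). Strand ratios were tested for hairpins averaging 20 or more counts with limma 3.58.1, and hairpin sums with edgeR on the same library sizes. Numbered copies of a hairpin were pooled. SE of edgeR changes were derived from the F value. A floor of 3 counts was 5.46 to 11.8 CPM in the oviducts and 12.8 to 15.02 CPM in the tumors, and Clopper-Pearson intervals and floors cover counting error only. The tests were checked on simulated counts. Alternatives included DESeq2 1.42.0, other scalings, filters and pseudocounts, thinning, a block on the replicate number, and each library left out in turn.

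The members and lists were chosen with earlier results of these data known. Named were all members, the 5 nearest profiles per tested strand, names sharing a seed, hairpins within 10 kb, and the 6 most abundant tested names of the stromal list. Other names were chosen after their values were seen.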

Additional observations from a re-analysis of the deposited data

How the results depend on the processing

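Over 9 tested results and 129 alternative fits, 119 kept the direction and the side of the threshold, 10 lost the call and 0 turned the direction. All 10 were of miR-214-5p, whose log2 fold change was -1.19 with library totals alone, -0.59 with TMM on 5p names, -1.73 with DESeq2, -1.47 with names without an arm left out and -1.82 with the replicate block. After thinning every library to the smallest it missed the filter and could not be tested. Leaving out a library gave between -2.68 and -1.51 for it, and the cause was not tested beyond the fewer samples in these fits. Calls of miR-199-3p, miR-214-3p, miR-199a-5p, the 3 strand ratios and the 2 hairpin sums held in every alternative run. Their lowest and highest log2 values were 1.93 and 4.00, 1.85 and 3.89, -4.78 and -2.77 for the strands, and -7.62 and -6.10, -6.99 and -3.93, -5.07 and -3.64 for the ratios of miR-199a, miR-199b and miR-214, and 1.74 and 3.14, 1.45 and 2.85 for the sums of miR-199 and miR-214. The miR-199b values follow the pseudocount, and without tumor 3 its change was -5.21. With both strands summed the log2 ratio of miR-199 to miR-214 changed by 0.33. The summed share of the members differed by 2.57 to 4.79 percentage points when a library was left out. Same-numbered samples did not deviate together (r -0.05, 0.09 and -0.14 across names). With so few samples this cannot exclude a pairing by number, and the labels state none. Where a fit left 2 libraries in a group, those were assumed to vary like the others. Depth limits the 5p members, which had between 0 and 14 counts in each tumor.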

Other observations

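The annotated microRNA gene Gm23363 lies within 10 kb of Mir199b, and no name in the count table was matched to it. No other hairpin lies within 10 kb of Mir199a-1, and within that distance of Mir199a-2 and Mir214 each has only the other.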
